A study of Mus musculus with 16 samples.

Results

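The core machinery of autophagy and the mTOR pathway were followed as a set of 45 genes among the 55604 genes listed in the data. Members were taken by gene name from a list, with no threshold on measured values. It held 33 autophagy genes, from Rb1cc1, which encodes FIP200, to Wipi2, and 12 mTOR pathway genes, from Mtor to Sesn2. RNA came from tumor-associated macrophages (TAMs) in the peritoneal wash of C57BL/6 mice bearing ID8, a line of mouse ovarian surface epithelial tumor cells implanted in the abdomen. All cells came from tumor-bearing mice of this strain, which the study's methods describe as young adult females. Normal and FIP200-deficient macrophages were not analysed here. Tim-4+ TAMs were captured with beads against Tim-4, and Tim-4- TAMs were then enriched from the cells left over with beads against F4/80, so the subset and the number of bead separations cannot be told apart. There were 4 Tim-4+ and 4 Tim-4- libraries, joined by the numbers 793, 784, 783 and 779 into 4 pairs, and values below are given in that order. Whether a library came from 1 animal or from pooled animals was not stated in the sources used here. The p-values of the main test, which has a term for the pair, measure how differences within pairs vary over these 4 pairs. Whether that is a spread between animals is not known.

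Autophagy is the process by which a double membrane closes around cytoplasm, protein aggregates or damaged mitochondria and delivers them to the lysosome. A kinase complex built on ULK1 and FIP200 starts it, a lipid kinase around Beclin-1 and VPS34 marks the membrane, and 2 ubiquitin-like conjugation systems attach proteins of the LC3 and GABARAP families to it. The mTOR kinase in its complex mTORC1 senses amino acids, growth factors and stress, restrains ULK1 and drives protein synthesis through S6 kinase and the 4E-BP proteins. Much of this control acts on phosphorylation and protein turnover, and RNA levels do not measure either. The question put to these libraries was whether the messages of these genes differ between the 2 TAM subsets.

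Total counts on genes ranged from 53527928 to 57768202 per Tim-4+ library and from 55618306 to 69594245 per Tim-4- library. Timd4, the gene of the sorting antigen, was at 1160, 1743, 524 and 1166 CPM (counts scaled to a common library size) in Tim-4+ TAMs and at 84.9, 11.1, 22.3 and 1.96 CPM in Tim-4- TAMs, and the subsets did not overlap. Of 8 macrophage markers, 5 were called higher in Tim-4+ TAMs, among them Adgre1 (2.43-fold), Cd68 (2.54-fold) and Itgam (2.37-fold), and 1 was called lower, Mrc1. Their summed level ranged from 43300 to 55700 CPM against 20900 to 33400 CPM. Most of that sum was Lyz2, at 33394 to 46905 CPM against 16043 to 27061 CPM. Csf1r, at 1957 CPM or more in every library, was not called. Of 12 fixed markers of tumor, epithelial or mesothelial cells, 11 were called lower in Tim-4+ TAMs. Their summed level ranged from 116 to 418 CPM in Tim-4+ TAMs and from 471 to 2220 CPM in Tim-4- TAMs, and Cdh1 and Epcam were the scarcest among them. All 7 markers of monocyte-derived macrophages were called lower as well, with a summed level of 449 to 3240 CPM against 2260 to 7410 CPM. The list holds Ccr2 and Cd226, which the study names among the top lower genes of these same data. Its calls are therefore no independent check of the cells. Summed T and NK cell markers ranged from 0.832 to 3.67 CPM in Tim-4+ TAMs and from 4.45 to 12.2 CPM in Tim-4- TAMs. Of these 9 markers, 3 had enough counts to be tested. Cd4 had the largest mean, 0.813 CPM in Tim-4+ and 4.8 CPM in Tim-4- TAMs, and was called lower (6.73-fold). Cd3d, Cd3e and Cd3g had means of at most 0.206 CPM in either subset, and Ncr1 was at 0 in 6 of the 8 libraries. The sum rests largely on Cd4 and is not read as a measure of T cells. The part of these other cells in the differences below was not tested, and in such bulk libraries fewer cells of a type and less RNA per cell cannot be told apart.

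Levels were compared by edgeR's quasi-likelihood test, with a term for the pair, p-values were adjusted by Benjamini-Hochberg over 16861 genes, and an adjusted p under 0.05 was taken as a call. Over all genes tested, 8.97% were called higher and 8.43% lower in Tim-4+ TAMs. Of the 45 members, 43 had at least 10 counts in at least 4 libraries and were tested. Among the 31 autophagy genes tested, 4 were called higher (12.9%) and 0 lower. At an unadjusted p under 0.05, 6 were higher and 0 lower, against 16.8% and 16.9% of all genes. DESeq2 called 5 higher and 0 lower, against 13.1% and 13.8% of all genes. Among the 12 mTOR pathway genes, 1 was called higher (8.33%) and 1 lower (8.33%). The shares called higher lay near that of all genes. The median log2 fold change was 0.05 over the autophagy genes, 0.02 over the mTOR pathway genes and 0.00 over all genes tested.

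The genes that passed the test were Wipi1, Atg3, Atg7 and Gabarap on the autophagy side, with rises of 1.32- to 1.44-fold in Tim-4+ TAMs, and Eif4ebp1 and Ddit4 on the mTOR side. Eif4ebp1 rose 1.34-fold and Ddit4 fell 4.20-fold. Ddit4 was the single member called with a change of at least 2-fold, which 9.59% of all genes tested met, 3.8% higher and 5.79% lower. The 95% intervals of all 31 autophagy genes lay within a 2-fold change in either direction, and those of 25 of them lay within 1.5-fold. The scaling between libraries bears on every small difference here, since the TMM factors were 0.833 to 0.948 in Tim-4+ and 1.05 to 1.18 in Tim-4- libraries. Scaling by total counts alone moved the median of all genes from 0.00 to -0.36 on the log2 scale. It moved the autophagy median to -0.31 and the mTOR median to -0.33, left Ddit4 as the single one of these 6 genes past the test, and put 12 autophagy genes and 6 mTOR pathway genes at a call of lower. Over all genes that scaling called 789 higher and 4903 lower, against 1512 and 1421 here, and changes are therefore reported relative to the bulk of genes.

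**Figure D1:**
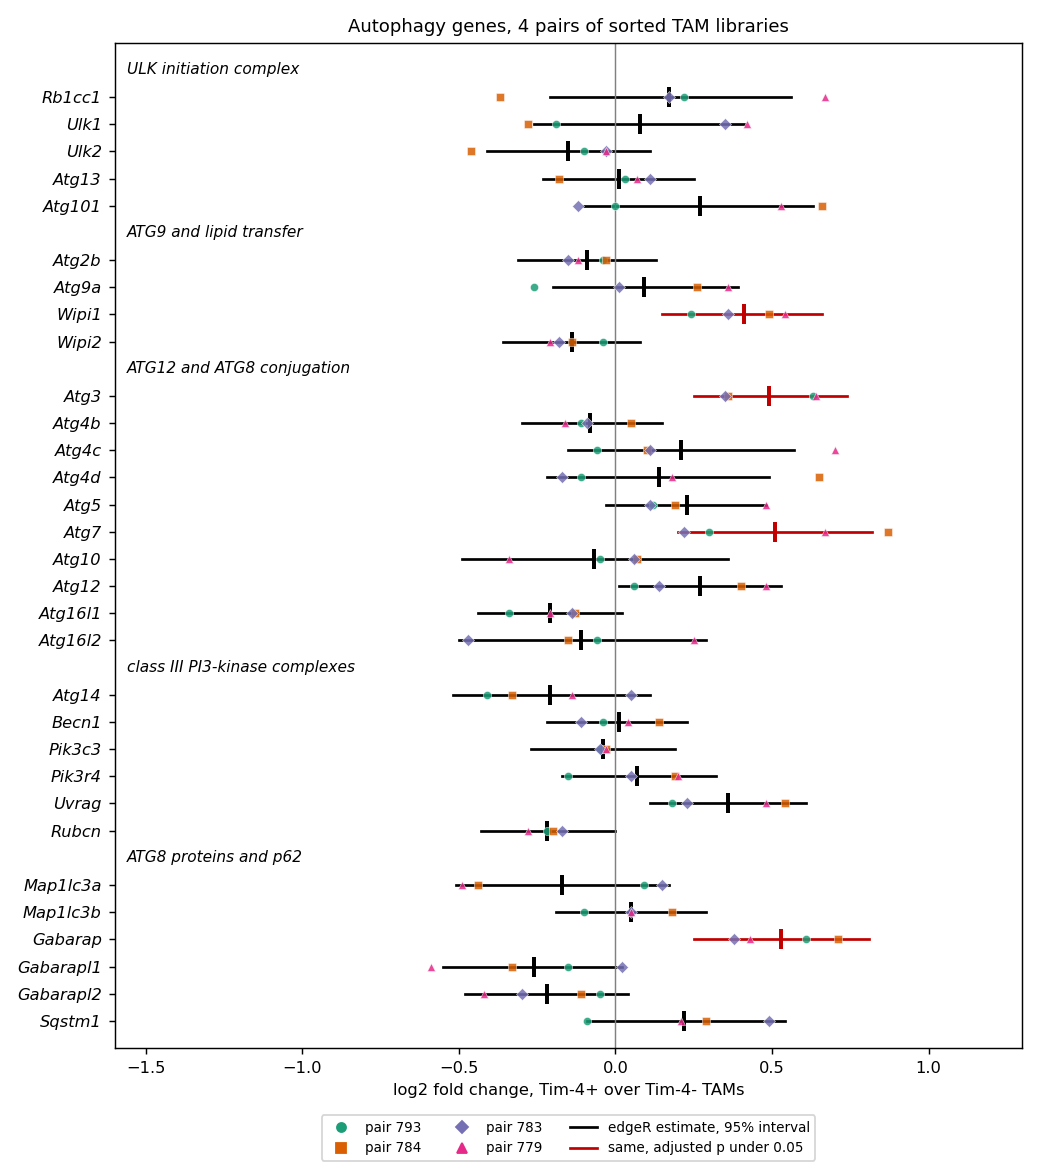
Fold change of the 31 tested autophagy genes on the log2 scale (x axis), grouped by role (y axis). Points are the log2 ratios of Tim-4+ over Tim-4- TAMs in the 4 pairs, bars the edgeR estimate with its 95% interval, and red marks the 4 genes with an adjusted p under 0.05, which sit between 0.41 and 0.53.

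The sequence before the start is shown for 4 members, because Atg3 and Atg7 were called higher, Ddit4 was called lower, and Atg5 is an uncalled member of the conjugation systems with the same letters. Sequences are from RefSeq on GRCm38.p6, run 5′ to 3′ on the gene's own strand, and end where the annotation places the first exon base of the gene or at the RefSeq start. Capitals mark CACGTG, the E-box core that the MiT/TFE factors of the lysosome and autophagy program recognize, searched on both strands (it reads the same on both), and in Atg3 once the longer TCACGTGA around it.

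Atg3, chr16:45158579-45158784, + strand: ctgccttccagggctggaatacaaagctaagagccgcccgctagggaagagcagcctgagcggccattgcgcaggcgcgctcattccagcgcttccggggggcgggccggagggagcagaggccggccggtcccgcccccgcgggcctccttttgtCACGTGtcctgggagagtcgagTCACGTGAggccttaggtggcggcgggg
Atg5, chr10:44268089-44268338, + strand: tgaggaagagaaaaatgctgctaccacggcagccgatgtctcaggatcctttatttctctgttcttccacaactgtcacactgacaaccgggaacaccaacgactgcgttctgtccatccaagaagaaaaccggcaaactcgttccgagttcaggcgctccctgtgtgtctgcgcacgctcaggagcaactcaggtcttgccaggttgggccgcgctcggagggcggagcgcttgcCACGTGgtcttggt
Atg7, chr6:114670846-114671095, + strand: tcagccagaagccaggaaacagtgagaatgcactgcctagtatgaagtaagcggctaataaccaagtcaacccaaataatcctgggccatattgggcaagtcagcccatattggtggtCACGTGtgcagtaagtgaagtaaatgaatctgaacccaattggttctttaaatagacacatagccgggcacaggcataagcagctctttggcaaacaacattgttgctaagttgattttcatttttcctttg
Ddit4, chr10:59951835-59952020, - strand: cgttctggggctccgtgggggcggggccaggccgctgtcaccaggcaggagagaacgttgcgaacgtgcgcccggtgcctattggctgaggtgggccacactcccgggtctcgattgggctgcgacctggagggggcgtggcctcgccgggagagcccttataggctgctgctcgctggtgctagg

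The Atg7 stretch precedes a RefSeq start that lies inside the longer gene of the annotation, and no Atg7 exon overlaps it. Windows of 300 bases around the start (250 before, 50 after) were matched for 38 of the 45 members, with 42 windows in all. CACGTG occurred in 6 of these 42 windows (14.3%), those of Atg3, Atg5, Atg7, Atg14, Rheb and Rubcn, and in 7.15% of all 32851 windows. Atg3 held it in 2 places, starting 94 and 71 bases before the RefSeq start. The longer palindrome TCACGTGA, which contains CACGTG, occurred at the second of these places in Atg3 and in 0.974% of all windows. The forkhead motif GTAAACA, searched on both strands, was found in 1 member window (Sesn1) and in 3.65% of all windows. The windows of Ddit4, Gabarap and Wipi1, also called, held none of these letters. Eif4ebp1, Rb1cc1, Atg12, Atg16l1, Becn1, Pik3c3 and Map1lc3a were not matched. These matches describe letters in a window and not binding.

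Initiation of autophagy depends on the ULK complex, and none of its 5 genes was called. Rb1cc1, which encodes the scaffold FIP200, was at 48.6, 24.5, 40 and 64.5 CPM in Tim-4+ TAMs and at 41.7, 31.7, 35.5 and 40.6 CPM in Tim-4- TAMs. The subsets overlapped, with the lowest and the highest of the 8 values both in Tim-4+ TAMs, in pairs 784 and 779. Its log2 fold change was 0.17 (SE 0.16, 95% interval -0.21 to 0.56, adjusted p = 0.503 by edgeR). Ulk1, the kinase that starts the process, was at 84.3, 37, 103 and 150 CPM in Tim-4+ TAMs and at 96, 44.8, 81 and 112 CPM in Tim-4- TAMs, a log2 fold change of 0.08 (95% interval -0.26 to 0.41). The library of pair 784 was the lowest and that of pair 779 the highest in both subsets. Ulk2, the related kinase, had a log2 fold change of -0.15 (95% interval -0.41 to 0.11), and the adaptor Atg13 of 0.01 (95% interval -0.23 to 0.25). Atg13 ran from 22 to 70.8 CPM in Tim-4+ TAMs and from 24.9 to 67.5 CPM in Tim-4- TAMs, and pair 779 held the top value of both. Atg101, which stabilizes Atg13, had a log2 fold change of 0.27 (95% interval -0.10 to 0.63) with pair ratios of 0.00, 0.66, -0.12 and 0.53.

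Membrane supply to the growing autophagosome involves the vesicle protein ATG9A, the lipid transfer proteins ATG2A and ATG2B and the phosphoinositide readers WIPI1 and WIPI2. Wipi1 (chr11:109573331-109611967, GRCm38, as are the gene positions that follow) was called higher. It was at 28, 27.5, 35.9 and 27.1 CPM in Tim-4+ TAMs and at 23.8, 19.6, 27.9 and 18.6 CPM in Tim-4- TAMs. It was higher in 4 of 4 pairs, although the Tim-4- library of pair 783 reached into the Tim-4+ range. Its log2 fold change was 0.41 (SE 0.11, edgeR adjusted p = 0.0439), and the call was lost when any 1 of the 4 pairs was left out, with adjusted p of 0.0878 to 0.143. Without pair 793, 784 or 779 such losses were general. Over all genes 719, 78 and 445 were then called higher, against 1512 with all pairs. Without pair 783 the count was 1573, so the loss of the Wipi1 call there was not part of a general loss. Timd4, the sorting gene, reached an edgeR adjusted p of up to 0.0845 with 1 pair left out. Wipi2, the family member that recruits ATG16L1 in canonical autophagy, was lower in 4 of 4 pairs by small amounts, with a log2 fold change of -0.14 (95% interval -0.36 to 0.08) and no call. Atg2b and Atg9a had log2 fold changes of -0.09 and 0.09 without a call. Exons of Atg9a share 31.8% of their bases with Gm29253 on the same strand, which leaves its count uncertain.

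Atg2a and Atg4a could not be tested. Atg2a had 2 to 12 counts per library. Broadly expressed genes beside it on chromosome 19 were also almost empty, with 113 counts for the splicing factor Sf1 and 18 for Men1 summed over all 8 libraries. Atg4a, a cysteine protease that trims LC3-family proteins, had 0 counts in the 8 libraries. By a floor of 3 counts this allows up to 0.0431 to 0.0560 CPM, scaled by total counts without TMM factors, for counting error only. The Atg4a neighbor Psmd10, a proteasome chaperone gene, was at 0 too. The values of both members are therefore not read as absence of the message, and the cause was not tested.

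The conjugation systems held 2 of the 4 rises. Atg7 (chr6:114643097-114860614) encodes the E1-like enzyme that activates both ATG12 and the LC3-family proteins. It was at 149, 109, 114 and 136 CPM in Tim-4+ TAMs and at 121, 60, 98.4 and 85.6 CPM in Tim-4- TAMs. Tim-4+ TAMs were higher in each pair, and the ranges overlapped through the Tim-4- library of pair 793. The log2 fold change was 0.51 (SE 0.13, 95% interval 0.20 to 0.82, edgeR adjusted p = 0.0368).

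Atg3 (chr16:45158785-45188538) encodes the E2-like enzyme that passes LC3-family proteins from ATG7 to lipid. It was at 74.3, 77.7, 61.4 and 80.1 CPM in Tim-4+ TAMs and at 48, 60.5, 48.3 and 51.3 CPM in Tim-4- TAMs. No Tim-4- library reached the lowest Tim-4+ library. The log2 fold change was 0.49 (SE 0.11, 95% interval 0.25 to 0.74, edgeR adjusted p = 0.0203). Subsets that did not overlap were found for 2 of the 31 autophagy genes (6.45%) and for 12.8% of all genes tested, 6.84% with Tim-4+ TAMs higher and 5.92% with them lower. Without pair 793, 784 or 779 in turn the adjusted p was 0.0882, 0.0746 and 0.0778 for Atg3 and 0.0737, 0.148 and 0.129 for Atg7, with log2 fold changes of at least 0.44 and 0.39.

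The remaining conjugation genes were not called. Atg12, the ubiquitin-like protein, was at 67.5, 46.8, 38.6 and 79.6 CPM in Tim-4+ TAMs and at 64.7, 35.4, 35.1 and 56.9 CPM in Tim-4- TAMs (log2 fold change 0.27, edgeR adjusted p = 0.132). Its partner Atg5 had a log2 fold change of 0.23 (95% interval -0.03 to 0.48), and Atg7, Atg3, Atg12 and Atg5 were each higher in 4 of 4 pairs. Atg16l1, which completes the ATG12-ATG5 complex, went the other way in 4 of 4 pairs with a log2 fold change of -0.21 (95% interval -0.44 to 0.02). Same direction in 4 of 4 pairs was found for 14 of the 31 autophagy genes (45.2%), 7 higher and 7 lower, and for 42.6% of all genes tested, 22.4% higher and 20.2% lower. Atg10, Atg16l2 and the proteases Atg4b, Atg4c and Atg4d had log2 fold changes between -0.11 and 0.21. For Atg4d, 19.3% of the exon bases lie opposite Kri1.

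Nucleation relies on the class III PI3-kinase complexes, whose catalytic subunit is VPS34, encoded by Pik3c3. None of their 6 genes was called. Becn1, the Beclin-1 gene, was at 57.5 to 67 CPM in the Tim-4+ and 59.3 to 66.8 CPM in the Tim-4- libraries (log2 fold change 0.01, 95% interval -0.22 to 0.23), though 43.9% of its exon bases lie opposite Cntd1. Pik3c3 and the regulatory subunit Pik3r4 had log2 fold changes of -0.04 and 0.07. Uvrag, which directs the complex toward endosomes and maturation and has 17.6% of its exon bases opposite Gm45187, came nearest to a call. It was at 123, 66.2, 90.2 and 127 CPM in Tim-4+ TAMs and at 108, 45.5, 77 and 91 CPM in Tim-4- TAMs, higher in each pair yet overlapping between subsets (log2 fold change 0.36, SE 0.11, edgeR adjusted p = 0.057, and DESeq2 adjusted p = 0.0287). Atg14, the subunit that takes the place of UVRAG in the autophagy complex, had a log2 fold change of -0.21 (95% interval -0.52 to 0.11), and Rubcn, an inhibitor of the UVRAG complex, of -0.22 (95% interval -0.43 to 0.00).

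Among the LC3 and GABARAP proteins, which decorate the membrane and bind cargo receptors, Gabarap rose while its relatives were not called. Gabarap (chr11:69991143-69994951) was at 407, 414, 460 and 497 CPM in Tim-4+ TAMs and at 268, 254, 354 and 369 CPM in Tim-4- TAMs. The subsets did not overlap. The log2 fold change was 0.53 (SE 0.12, 95% interval 0.25 to 0.81, edgeR adjusted p = 0.0252). It was not called without pair 793, 784 or 779 (adjusted p of 0.0826, 0.118 and 0.0703, log2 fold changes of 0.47 to 0.56).

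Gabarapl1 was at 78, 62.6, 78.6 and 108 CPM in Tim-4+ TAMs and at 86.4, 78.7, 77.7 and 162 CPM in Tim-4- TAMs, where pair 779 stood far above the others (log2 fold change -0.26, 95% interval -0.55 to 0.02). Gabarapl2 had a log2 fold change of -0.22 (95% interval -0.48 to 0.04). Map1lc3b, the LC3B gene, was at 170, 117, 168 and 233 CPM in Tim-4+ TAMs and at 182, 103, 162 and 224 CPM in Tim-4- TAMs (log2 fold change 0.05, 95% interval -0.19 to 0.29), so its pairs differed from each other by more than its subsets. Map1lc3a had a log2 fold change of -0.17 without a call. Sqstm1, the gene of the cargo receptor p62, was at 402, 389, 410 and 571 CPM in Tim-4+ TAMs and at 428, 318, 292 and 494 CPM in Tim-4- TAMs (log2 fold change 0.22, edgeR adjusted p = 0.288). Of its exon bases 17.3% lie opposite Mrnip, and 28.3% of those of Gabarapl1 lie opposite 1700101I11Rik. Reads that aligned to several places had been set aside, so genes with near-identical copies are undercounted.

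Per kilobase of exon, Gabarap was the most abundant member in both subsets. Its level was 241 CPM per kb in Tim-4+ TAMs and 169 CPM per kb in Tim-4- TAMs, followed by Sqstm1 at 132 and 114 CPM per kb and Gabarapl1 at 40.6 and 50.3 CPM per kb. Atg3 and Map1lc3b stood close together at 23.3 and 22.9 CPM per kb in Tim-4+ TAMs. Of the tested members, Atg16l2 was the lowest in both subsets, at 1.06 and 1.13 CPM per kb. Rb1cc1 lay near the bottom of the range, at 3.02 and 2.54 CPM per kb. Lengths are those of all annotated exons, so a gene with many unused exons reads low.

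**Figure D2:**
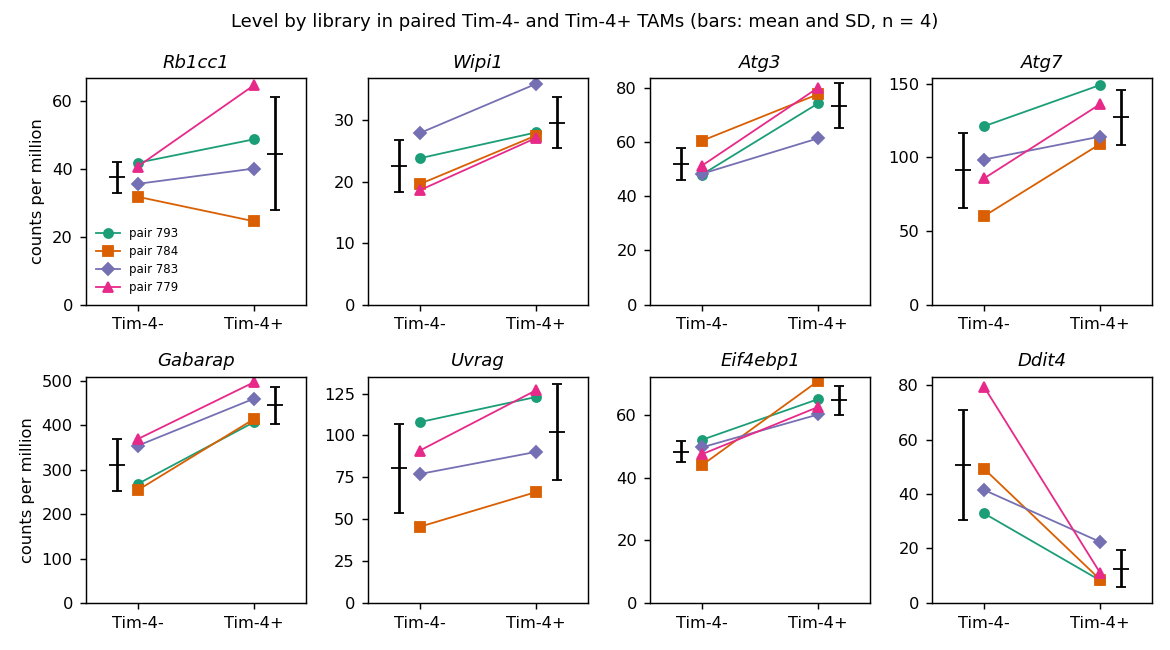
CPM on linear axes from 0 in each library of the 4 pairs for Rb1cc1, Uvrag and the 6 called members. Lines join the libraries of a pair and black bars give the mean and SD (n = 4). Lines rise in each pair for Wipi1, Atg3, Atg7, Gabarap, Uvrag and Eif4ebp1, fall in each pair for Ddit4, and go both ways for Rb1cc1.

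On the mTOR side, the genes of the kinase complexes were not called. Mtor was at 55.6, 70.5, 54.3 and 49.9 CPM in Tim-4+ TAMs and at 66, 80.8, 53.4 and 67.6 CPM in Tim-4- TAMs (log2 fold change -0.21, 95% interval -0.47 to 0.04, edgeR adjusted p = 0.21). Rptor, the scaffold of mTORC1, had a log2 fold change of -0.18 (95% interval -0.41 to 0.06). Rictor, the scaffold of mTORC2, had one of 0.06 (95% interval -0.24 to 0.37). Mlst8, a subunit of both complexes, had one of -0.17 with 22.5% of its exon bases opposite Bricd5. The genes of the TSC complex, which switches mTORC1 off through the GTPase Rheb, differed little. Tsc2 had a log2 fold change of 0.20 (95% interval -0.04 to 0.44), Tsc1 of -0.07 and Rheb of -0.02.

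Of the mTORC1 substrates, Eif4ebp1 (4E-BP1, a repressor of cap-dependent translation) was higher. It was at 65.1, 70.9, 60.2 and 62.6 CPM in Tim-4+ TAMs and at 52.1, 44, 49.7 and 47.5 CPM in Tim-4- TAMs. The subsets did not overlap, and this was the member with the smallest share of its spread between pairs. The log2 fold change was 0.42 (SE 0.11, 95% interval 0.17 to 0.67, edgeR adjusted p = 0.0359). Without pair 793, 784 or 779 it lost the call, with adjusted p of 0.0922, 0.128 and 0.1. Rps6kb1, the S6 kinase gene, had a log2 fold change of 0.19 (95% interval -0.06 to 0.44).

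Ddit4 (chr10:59949669-59951834), also known as REDD1, is induced by stress, hypoxia and glucocorticoids and inhibits mTORC1 through the TSC complex. It was at 8.25, 8.56, 22.4 and 11 CPM in Tim-4+ TAMs and at 32.9, 49.3, 41.5 and 79.4 CPM in Tim-4- TAMs. Every Tim-4- library was above the highest Tim-4+ library, that of pair 783, and the smallest gap between subsets lay in pair 783 too. The log2 fold change was -2.07 (SE 0.32, 95% interval -2.85 to -1.29, edgeR adjusted p = 0.0127), with log2 ratios of -1.99, -2.52, -0.89 and -2.84 in the pairs. Without pair 783 it was -2.47 (adjusted p = 2.32e-05). Without pair 793 or 784 it kept its size (-2.09 and -1.91) but had adjusted p of 0.0525 and 0.0733. The tumor, epithelial and mesothelial markers named above were lower in the same subset, and their part in the Ddit4 difference was not tested.

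The sestrins, which restrain mTORC1 in response to stress and amino acid shortage, were not called. Sesn2 was at 27.6, 35.6, 37.8 and 41.9 CPM in Tim-4+ TAMs and at 30.6, 23.5, 26.9 and 24.6 CPM in Tim-4- TAMs. It was higher in 3 of 4 pairs and not in pair 793 (log2 fold change 0.43, 95% interval 0.06 to 0.80, edgeR adjusted p = 0.103). Without pair 793 its log2 fold change was 0.62 and its adjusted p = 0.0497. Sesn1 was at 84.4, 32.1, 69.1 and 53.9 CPM in Tim-4+ TAMs and at 79.5, 31.9, 73.9 and 37.5 CPM in Tim-4- TAMs, with a log2 fold change of 0.13 (95% interval -0.16 to 0.42). Subsets that did not overlap were found for 2 of the 12 mTOR pathway genes (16.7%), Eif4ebp1 and Ddit4, near the 12.8% of all genes tested.

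**Figure D3:**
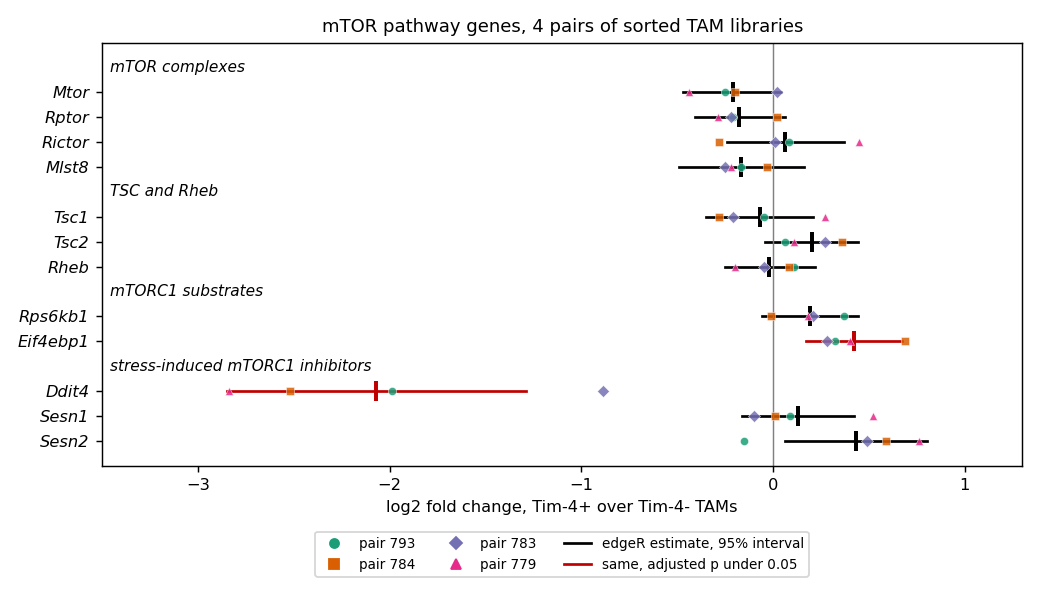
Fold change of the 12 mTOR pathway genes on the log2 scale (x axis), grouped by role (y axis). Points are the log2 ratios of Tim-4+ over Tim-4- TAMs in the 4 pairs and bars the edgeR estimate with its 95% interval. Eif4ebp1 at 0.42 and Ddit4 at -2.07 are in red (adjusted p under 0.05), and the interval of each other gene but Sesn2 crosses 0.

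By sums of squares, more of the members' spread lay between pairs than between subsets. Of the spread of log2 CPM over the 8 libraries, measured as sums of squares, a median of 74.6% lay between pairs and 9.84% between subsets for the 31 autophagy genes. For all genes tested the medians were 52.5% and 19%. The pair share was the larger for 28 of the 31 autophagy genes, all but Atg3, Gabarap and Wipi1, and for 7 of the 12 mTOR pathway genes. It was the larger for 69.7% of all genes tested and for 71.4% of the 9767 genes within the same range of mean level. There are more pairs than subsets, so the pair share tends to be the larger even without an effect of either. These shares are descriptions, and no test was run on them.

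Pairs 779 and 784 stood at the ends of this variation. For 12 of the 31 autophagy genes (38.7%) pair 779 had the highest level in both subsets, against 10.6% of all genes tested. They included Ulk1, Atg13, Atg14, Wipi2, Sqstm1 and 5 of the LC3 and GABARAP genes. For 12 autophagy genes (38.7%) pair 784 had the lowest level in both subsets, against 14.7% of all genes. Ulk1, Atg13, Atg14, Pik3c3, Map1lc3b and Wipi2 were in both groups. Atg13, for instance, differed between these pairs by 70.8 against 22 CPM in Tim-4+ TAMs and by 67.5 against 24.9 CPM in Tim-4- TAMs. The study describes the subsets as paired, whether the libraries of a pair came from the same mouse was not stated in the sources used here, and an effect of animal, day or preparation cannot be told apart. Lists of related genes, described below, shared the order of the autophagy genes in part. Pair 779 was highest in both subsets for 25% of 24 selective autophagy and mitophagy receptors. It was so for 30.8% of 13 other autophagosome formation genes and for 0 of 12 fusion genes. Pair 784 was lowest in both subsets for 33.3%, 30.8% and 41.7% of these lists. Over all 113 surrounding genes tested the shares were 13.3% and 26.5%. The 12 mTOR pathway genes did not share this order. Pair 779 was highest in both subsets for 0 of them and lowest for 2, Mlst8 and Rps6kb1, and pair 784 was highest for 2, Mtor and Rps6kb1, and lowest for 2, Tsc1 and Sesn1.

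**Figure D4:**
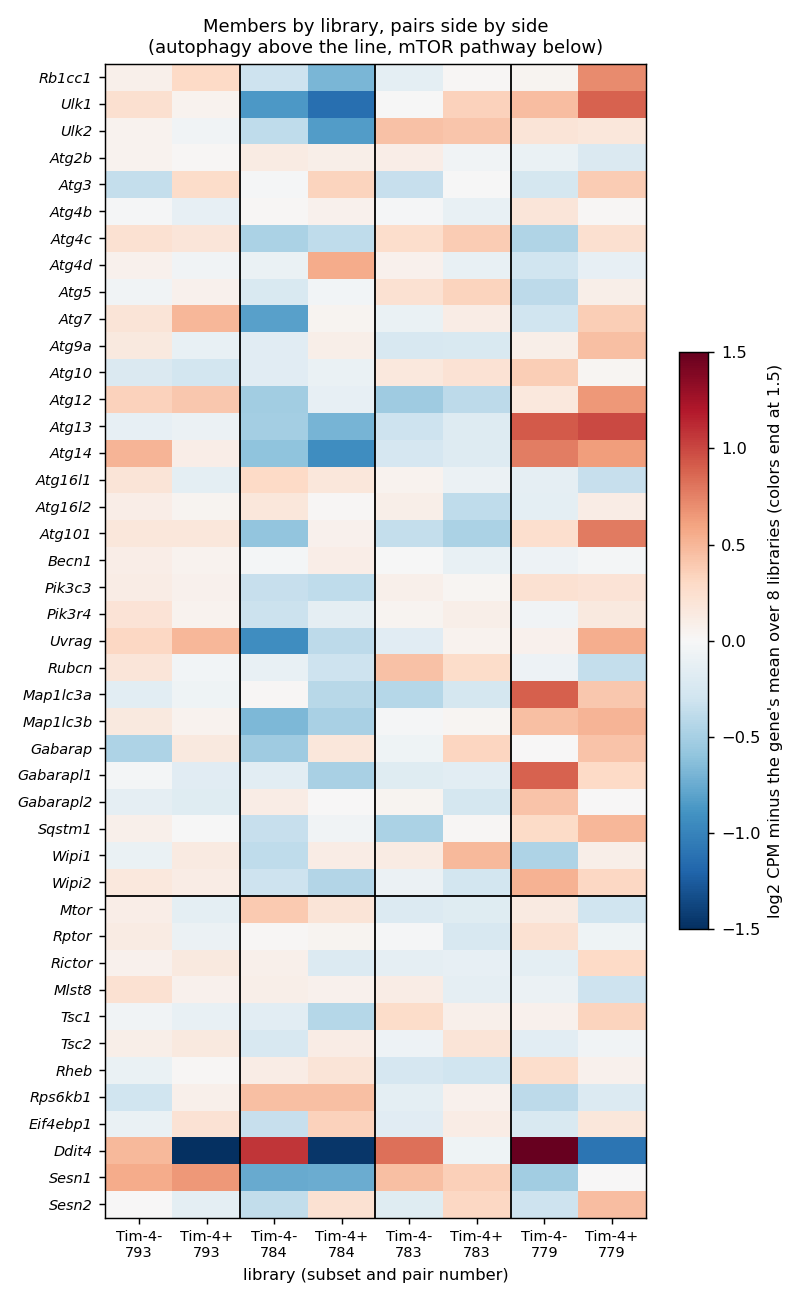
Log2 CPM of the 43 tested members minus each gene's mean over the 8 libraries, in columns by pair with the Tim-4- library left of the Tim-4+ library. Red is above and blue below the gene's mean, and neighboring columns of a pair share their color for many rows, for example Atg13 and Map1lc3b high in pair 779 and Ulk1 low in pair 784. Ddit4 alternates between subsets.

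Ratios between paralogs or partners within a library do not depend on the scaling between libraries. Of 9 ratios fixed for this purpose, 0 had an adjusted p under 0.05 by an exact two-sided permutation test over 70 relabellings. The relabellings ignored the pairing, since swaps within the 4 pairs cannot reach 0.05. The smallest p of the test is 0.0286, and a ratio alone at that value could not pass the adjustment over the 9. The adjusted count therefore cannot decide whether a single ratio differs. At an unadjusted p under 0.05 there were 0 as well. The ratio that came nearest was Atg14 to Uvrag, the subunits that compete for the Beclin-1 and VPS34 core. Per kilobase, its log2 value was -2.03, -2.18, -1.89 and -1.56 in the Tim-4+ libraries and -1.44, -1.31, -1.71 and -0.94 in the Tim-4- libraries. It was lower in Tim-4+ TAMs in 4 of 4 pairs, with overlapping ranges. The mean was -1.91 ± 0.26 against -1.35 ± 0.32 (SD, n = 4), a difference of -0.56 (exact permutation p = 0.0571, adjusted over the 9 ratios p = 0.514). The ratio of Ulk1 to Ulk2 was 0.49 ± 0.43 against 0.26 ± 0.40 (SD, n = 4) on the log2 scale, and that of Rptor to Rictor, which stand for mTORC1 and mTORC2, was 0.10 ± 0.26 against 0.34 ± 0.18. The ratio with Atg2a is not read, since Atg2a was almost uncounted. The other 5 differed between subsets by -0.30 to -0.04 on the log2 scale, with exact permutation p of 0.314 to 0.857.

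**Figure D5:**
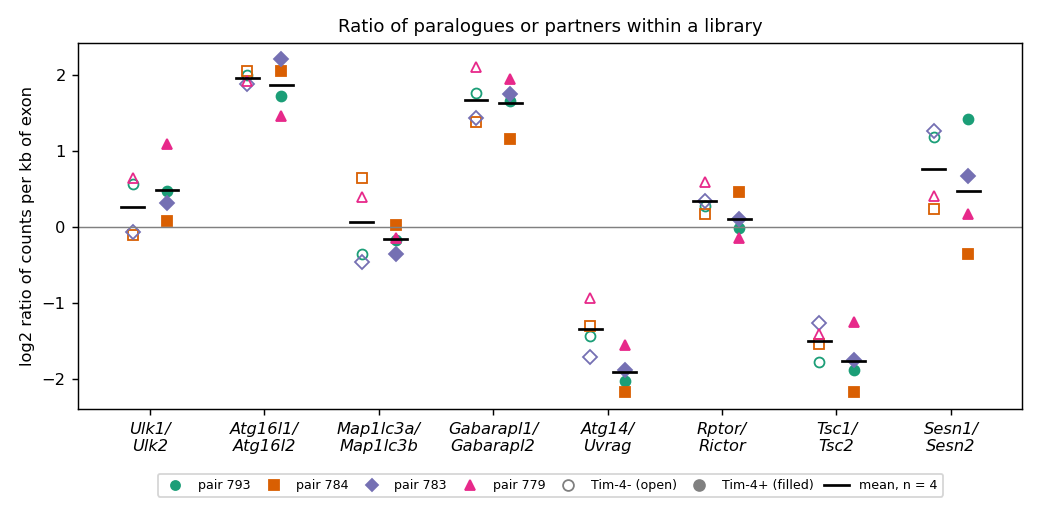
Log2 ratio of counts per kilobase of exon (y axis) for 8 gene pairs (x axis), in Tim-4- libraries (open) and Tim-4+ libraries (filled). Symbols mark the pair and black bars the mean (n = 4). The subsets overlap for each ratio, and Atg14 to Uvrag shows the widest gap between means, -1.91 against -1.35.

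Genes that surround the core were counted from 7 lists of receptors, regulators and sensors. Of 117 genes, 113 were tested, 8 were called higher (7.08%) and 6 lower (5.31%), shares no larger than those of all genes (8.97% and 8.43%), with a median log2 fold change of 0.05. Among the 24 receptors of selective autophagy and mitophagy, 2 were called higher (8.33%) and 3 lower (12.5%). Optn, the receptor optineurin, rose with a log2 fold change of 0.58 (SE 0.12, edgeR adjusted p = 0.0206). The glycogen receptor gene Stbd1 fell with a log2 fold change of -0.89 and the endoplasmic reticulum receptor gene Retreg1 with one of -0.43 (edgeR adjusted p = 0.0276 and 0.0353).

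Of the 7 transcription factors listed, 2 were called higher (28.6%) and 0 lower, against 8.97% and 8.43% of all genes. At an unadjusted p under 0.05, 3 were higher and 2 lower, against 16.8% and 16.9% of all genes. DESeq2 called 3 higher and 1 lower, against 13.1% and 13.8% of all genes. Tfec, a member of the MiT/TFE family found in macrophages, was at 18.6, 19.9, 23.2 and 15.4 CPM in Tim-4+ TAMs and at 12.8, 6.79, 14.7 and 6.06 CPM in Tim-4- TAMs. The subsets did not overlap (log2 fold change 1.02, SE 0.20, edgeR adjusted p = 0.0167). Its relative Tfeb had a log2 fold change of -0.39 and an edgeR adjusted p of 0.0613. Of the 12 fusion genes tested, Rab7 was called higher (8.33%) and Tecpr1 lower (8.33%). Of 13 other genes of autophagosome formation, Vmp1 was called lower (7.69%). Tecpr1, which tethers autophagosomes to lysosomes, had a log2 fold change of -0.57 (edgeR adjusted p = 0.0282), and Vmp1, a lipid scramblase of the endoplasmic reticulum, of -0.47 (edgeR adjusted p = 0.0391).

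Among 28 genes through which mTORC1 senses amino acids, 2 were called higher (7.14%) and 1 lower (3.57%). The shares of all genes were 8.97% and 8.43%. Lamtor1, the anchor that holds the Ragulator complex on the lysosome, was at 184, 193, 217 and 189 CPM in Tim-4+ TAMs and at 134, 100, 150 and 125 CPM in Tim-4- TAMs. No library overlapped (log2 fold change 0.63, SE 0.12, edgeR adjusted p = 0.0147). Rragb, a Rag GTPase gene, was lower from few reads, with 3 to 48 counts per Tim-4+ library and 24 to 125 per Tim-4- library (log2 fold change -1.88, edgeR adjusted p = 0.0355). Its paralog Rraga, at means of 49.8 CPM in Tim-4+ and 48.7 CPM in Tim-4- TAMs, was not called (log2 fold change 0.06). In the list of 12 genes of AMPK and its kinases, which oppose mTORC1, 1 was called higher (8.33%) and 0 lower. It was Prkaa2, with 31 to 46 counts per Tim-4+ library and 2 to 20 per Tim-4- library (log2 fold change 2.26, SE 0.56, edgeR adjusted p = 0.0312). Its far more abundant paralog Prkaa1, at means of 46 CPM in Tim-4+ and 40.1 CPM in Tim-4- TAMs, was not called (log2 fold change 0.22). Of the 17 other mTOR complex and signaling genes tested, 0 were called by edgeR. At an unadjusted p under 0.05, 2 were higher and 1 lower, against 16.8% and 16.9% of all genes. DESeq2 called 2, while it called 13.1% of all genes higher and 13.8% lower. Without pair 784 or 779, 0 of these surrounding genes were called in either direction. Over all genes 0.483% and 2.75% were then called higher and 0.334% and 2.03% lower.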

How the data were processed

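The authors deposited raw counts per gene and lane, from 16 lanes of 8 libraries. The submitters' processing notes name FastQC 0.11.3, TopHat2 2.0.13, Cufflinks and Cuffdiff 2.2.1 and the builds GRCm38 and mm10, whereas the study's methods name a human build; 98.6% of the gene identifiers were found in a GRCm38 annotation. The read counter and its strand setting are not given in the sources used here. Libraries were stranded, ribosomal RNA having been removed.

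Rows that name no gene were left out of library sizes. Reads aligned to several places were 20.3% to 24.5% in 14 lanes and 9.11% in lane 2 of the Tim-4- library of pair 779, and the symbol-listed lane described next had no such line. Ambiguous reads were 3.42% to 4.3% of a lane and reads on no feature 4.59% to 6.83%. One lane of Tim-4- TAMs of pair 793 listed symbols instead of identifiers and was joined by gene order; 96.8% of its symbols, and those of all 45 members, matched. The 2 lanes of a library were summed.

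Genes that reached 10 counts in 4 or more libraries were fitted with edgeR 4.0.16 (R 4.3.3, limma 3.58.1) by the robust quasi-likelihood test with TMM factors and the pair as a block, and p-values were adjusted by Benjamini and Hochberg over 16861 genes. The standard error was derived from the fold change and F statistic. CPM used TMM-scaled library sizes, and pair ratios are log2 ratios of CPM plus 0.05. Floors of 3 counts, 0.0431 to 0.056 CPM, were scaled by total counts without TMM factors and cover counting error only. Ratios between genes added 0.5 to counts before length scaling and were compared by exact permutation in Python 3.11.15. The fit was tested on simulated data.

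The pairing was checked from the counts: deviations from the subset means correlated between libraries of the same number with r = 0.471, 0.498, 0.408 and 0.277 in pairs 793, 784, 783 and 779, and the numbers come from the sample titles. The members and lists were chosen with earlier results of these data known. The residential peritoneal macrophage list holds Timd4, the gene sorted on, and Vsig4, which the study names among its top higher genes. All 45 members could be named, and of the pathway lists the 5 higher and 5 lower genes with the largest change among called genes whose 4 pairs shared 1 direction, plus Timd4; 1 gene that this rule would name is not reported here. Genes outside that rule (Rab7, Tfeb, Prkaa1, Rraga, and marker, overlapping and neighboring genes) were chosen after their values were seen. Marker lists covered macrophages (5 of 8 called higher, 1 lower), residential peritoneal macrophages (8 of 8 higher), B cells (2 of 7 lower) and dendritic cells (1 higher and 1 lower of 7 tested). They also covered granulocytes and mast cells (1 higher and 1 lower of 6 tested), red cells (1 of 3 tested higher) and T and NK cells (1 of 3 tested lower), besides those given with the results. The red cell gene called, Hba-a1, was found almost only in pair 783, at 49.7 CPM in the Tim-4+ and 14.3 CPM in the Tim-4- library. It was at 0.672 CPM or less in the other pairs and higher in 2 of 4 pairs. Alternatives were DESeq2 1.42.0 as test or for size factors, total-count scaling, no block, no or another filter, the second lane alone, the removal of each pair, and, chosen after seeing the data, the removal of the symbol-listed lane.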

Additional observations from a re-analysis of the deposited data

Results flagged for a closer look

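In 5 of 86 groups of 4 libraries, 1 library stood far from the other 3 by Dixon's test, which chance alone gives in about 1 in 20 groups. Gabarapl1 was at 162 CPM in the Tim-4- library of pair 779, against 77.7 to 86.4 CPM in the others of that subset. Atg4b was at 54.2 CPM in the same library, against 47.2 to 48.4 CPM. Sqstm1 was at 571 CPM in the Tim-4+ library of pair 779, against 389 to 410 CPM. Atg4d was at 45.8 CPM in the Tim-4+ library of pair 784, against 28.8 to 30.2 CPM, and without that pair its log2 fold change went from 0.14 to -0.04. Wipi1 was at 35.9 CPM in the Tim-4+ library of pair 783, against 27.1 to 28 CPM, and without that pair its log2 fold change was 0.41 with an edgeR adjusted p of 0.0878.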

How the results depend on the processing

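The count of autophagy genes called higher was 4 with the pair as a block and ranged from 3 to 5 under DESeq2 size factors, the DESeq2 test, no filter, a filter of 1 CPM, the second lane alone and removal of the symbol-listed lane. Without the replicate block, 0 autophagy genes, 0 mTOR pathway genes and 0 pathway genes were called higher, 0 pathway genes were called lower, and over all genes 147 were called higher and 85 lower. Ddit4 was the member still called without it, at -2.02 (edgeR adjusted p = 0.0472). Scaling by total counts gave 0 autophagy and 0 mTOR pathway genes higher, 12 and 6 lower, and 2 pathway genes higher and 43 lower. With no filter 0 mTOR pathway genes were called lower (Ddit4, adjusted p = 0.089), and the DESeq2 test called 12 pathway genes higher and 12 lower, and over all genes 2204 higher and 2323 lower. Leaving out 1 pair at a time, the calls ranged from 0 to 3 for autophagy genes higher, 0 to 1 for mTOR pathway genes in each direction, 0 to 7 for pathway genes higher and 0 to 9 lower. The 0 autophagy calls came without pair 793, 784 or 779, when over all genes 719, 78 and 445 were called higher and 470, 54 and 328 lower. The cause was not tested. The 6 called members kept their direction in all 12 alternatives, with log2 fold changes of 0.14 to 0.54 for Atg3, 0.16 to 0.61 for Atg7, 0.17 to 0.57 for Gabarap, 0.05 to 0.47 for Wipi1, 0.06 to 0.46 for Eif4ebp1 and -2.47 to -1.81 for Ddit4.

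Directions that turned were those of uncalled members. Under total counts the log2 fold change became -0.18 for Rb1cc1, -0.28 for Ulk1, -0.15 for Atg4c, -0.22 for Atg4d, -0.13 for Atg5, -0.26 for Atg9a, -0.09 for Atg12 and Atg101, -0.35 for Atg13 and Becn1, -0.29 for Pik3r4 and Rictor, -0.31 for Map1lc3b, -0.13 for Sqstm1, -0.16 for Tsc2, -0.17 for Rps6kb1 and -0.23 for Sesn1. Becn1 and Map1lc3b were then called lower. Atg13 and Becn1 were at -0.01 with no filter and at -0.03 and -0.01 with the second lane alone, where the Atg2a to Atg2b ratio differed by -0.51. With 1 pair left out, ranges that crossed or reached 0 were 0.00 to 0.35 for Rb1cc1, -0.04 to 0.19 for Ulk1, -0.04 to 0.23 for Atg4d, 0.00 to 0.22 for Atg9a, -0.12 to 0.02 for Atg10, -0.03 to 0.07 for Atg13, -0.23 to 0.01 for Atg16l2, -0.04 to 0.04 for Becn1, 0.00 to 0.10 for Map1lc3b, -0.07 to 0.17 for Rictor, -0.18 to 0.00 for Tsc1, -0.05 to 0.04 for Rheb and -0.01 to 0.20 for Sesn1. The same held for the ratios Atg2a to Atg2b (-0.12 to 0.46), Atg16l1 to Atg16l2 (-0.24 to 0.02) and Gabarapl1 to Gabarapl2 (-0.16 to 0.02). The ratios could not pass with a pair left out (smallest exact p 0.1) or with swaps within pairs, so these settings say nothing of their stability. Each tested member had at least 217 counts in every library, and depth limits Prkaa2 and Rragb most among the named genes.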
